A study of Mus musculus with 2 samples.

Results

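Gene deserts, the long stretches of the genome without protein-coding genes, held 4795 of the 49472 DNase-accessible sites that both hippocampal samples shared on the autosomes, or 9.69% (95% Wilson interval 9.43 to 9.96). Shared peaks on all chromosomes numbered 50780, of which 1308 lay on X and Y and were left out. Of the autosomal ones, 18299 overlapped no body of a protein-coding gene. Among these, 5086 lay over 100 kb from every start of a protein-coding transcript. A further 291 lay within 500 bp of the start of a noncoding gene and were set aside, which left the 4795 called desert sites here. The tissue was a layer of hippocampus, not named further in the labels, from male B6CASTF1/J mice aged 2 months. B6CASTF1/J mice are the F1 offspring of B6 and CAST parents, and the signal of both parental alleles was pooled on the B6-based mm10 assembly. The series held 1 group of 2 biological replicates, with separate biosamples but a single donor entry. The labels do not say whether they were separate animals, so the gap between them may be partly technical. Neither a treatment nor a second group was present, so replicate values stand side by side and no p-value was computed. Wilson intervals cover counting error over sites, which are not replicates of the tissue.

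Open chromatin far from genes commonly marks enhancers, stretches where transcription factors bind and from which they can act on a promoter through looping of the DNA. CTCF, a zinc-finger protein, is known to anchor many such loops together with cohesin. Genes with complex expression in the developing brain, transcription factor genes among them, are often flanked by deserts that carry many enhancers. In forebrain neurons, NFI factors and bHLH factors of the NEUROD type, which bind E-boxes, are well-known occupants of distal sites. Heights, as deposited, were whole multiples of a step of 0.00535 in replicate 1 and 0.0108 in replicate 2 (100% of the heights checked, to within 0.02 steps), and the median desert site stood 165 and 63 steps high. Promoters were open, meaning that a shared peak lay within 500 bp of a start, for 9 of 10 marker genes of hippocampal excitatory neurons (all but Prox1). Among astrocyte markers 3 of 5 were open, with 3 of 5 for oligodendrocytes, 2 of 5 for microglia and 1 of 5 for interneurons. Over all autosomal protein-coding genes the open share was 58.0%, and counts out of 5 are too small to set against it. None of 8 markers of liver, muscle and blood and none of 5 markers of other brain regions was open. The share of each cell type in the desert signal was not tested.

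The sites below were chosen as the highest desert site of all, the highest one with a match to the CTCF consensus, and the highest site of 6 of the deserts richest in sites. They are read 5′ to 3′ on the + strand of RefSeq's GRCm38 (mm10) sequence, and each name gives the flanking protein-coding genes of the desert. Capitals mark matches on either strand to the CTCF consensus, to the NFI half-site TTGGCA, and to the E-boxes CAGATGG (NEUROD type) and CAGCTG (ASCL/TCF type). The highest site (heights 23.9 in replicate 1 and 36.0 in replicate 2) holds none of the 4. The CTCF site (8.12 and 4.16) holds a single CTCF match. The Auts2 site holds 2 NFI half-sites 1 base apart, on opposite strands and pointing away from each other, and 1 NEUROD-type E-box. A NEUROD-type E-box also stands in the Zeb2 site, an NFI half-site in the Vrk1 site and a CAGCTG in the Kif2a site, while the Tenm2 and Id2 sites hold none of the 4.
Gm8797 to 1700008P02Rik, chr3:5860361-5860530: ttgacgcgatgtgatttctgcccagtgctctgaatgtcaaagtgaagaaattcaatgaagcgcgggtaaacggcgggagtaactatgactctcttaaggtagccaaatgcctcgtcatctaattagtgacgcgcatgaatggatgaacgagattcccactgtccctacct
Chd7 to Clvs1, chr4:9135881-9136080: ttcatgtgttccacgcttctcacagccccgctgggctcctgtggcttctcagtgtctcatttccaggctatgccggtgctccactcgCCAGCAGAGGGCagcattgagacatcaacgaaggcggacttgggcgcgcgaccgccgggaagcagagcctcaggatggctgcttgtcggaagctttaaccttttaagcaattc
Vrk1 to 3110018I06Rik, chr12:106185701-106185960: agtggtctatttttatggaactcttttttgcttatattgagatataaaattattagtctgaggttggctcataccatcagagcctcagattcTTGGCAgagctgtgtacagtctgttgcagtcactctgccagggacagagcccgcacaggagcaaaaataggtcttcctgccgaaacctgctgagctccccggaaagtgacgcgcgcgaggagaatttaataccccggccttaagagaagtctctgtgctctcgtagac
Auts2 to Castor2, chr5:132892701-132892880: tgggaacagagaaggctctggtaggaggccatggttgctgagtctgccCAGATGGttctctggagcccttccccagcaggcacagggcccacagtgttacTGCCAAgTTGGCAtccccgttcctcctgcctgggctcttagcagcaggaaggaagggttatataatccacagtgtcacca
Tenm2 to Mat2b, chr11:39589121-39589300: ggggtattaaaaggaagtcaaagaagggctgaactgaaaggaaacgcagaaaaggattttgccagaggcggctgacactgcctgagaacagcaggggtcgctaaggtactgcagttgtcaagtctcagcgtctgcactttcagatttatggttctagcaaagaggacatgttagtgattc
Zeb2 to Acvr2a, chr2:45411941-45412120: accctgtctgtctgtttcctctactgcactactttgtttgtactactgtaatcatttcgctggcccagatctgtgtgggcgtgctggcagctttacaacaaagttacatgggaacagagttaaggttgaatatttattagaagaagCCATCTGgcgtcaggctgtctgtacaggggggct
Kif2a to Ndufaf2, chr13:107831381-107831500: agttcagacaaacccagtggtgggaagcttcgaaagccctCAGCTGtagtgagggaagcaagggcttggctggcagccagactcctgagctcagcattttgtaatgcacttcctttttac
Id2 to Rnf144a, chr12:26071748-26071840: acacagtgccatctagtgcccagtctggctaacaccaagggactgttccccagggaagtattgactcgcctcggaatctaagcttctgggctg

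Accessible sites thinned out with distance beyond 50 kb from coding starts, and desert sites continued that decline. Outside coding genes, shared sites numbered 17.1 per Mb of sequence at 2.5 to 10 kb from the nearest coding start. The density was 16.4 per Mb at 10 to 25 kb, 17.2 at 25 to 50 kb and 14.3 at 50 to 100 kb. In the desert range the density was 10.5 per Mb at 100 to 200 kb, 7.45 at 200 to 500 kb, 3.68 at 500 to 1000 kb and 1.67 beyond 1000 kb (these densities include the 291 sites at noncoding starts). Apart from unknown bases, all sequence outside coding genes was counted in these densities, repeats included, and the part of repeats in them was not tested. Repeats also stayed in the sequence of every gap below. The number of desert sites in each range also depends on how much sequence it holds. Between 100 and 200 kb lay 2062 of them (43.0%), between 200 and 500 kb 2054 (42.8%), between 500 and 1000 kb 558 (11.6%) and farther still 121 (2.52%). The median distance was 224 kb and the quartiles were 149 and 366 kb. The 100 kb threshold itself cut through a gradual change. At 90 to 100 kb, 374 intergenic sites away from noncoding starts had median heights of 1.05 and 0.732, and at 100 to 110 kb, 319 sites had 1.06 and 0.775.

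**Figure D1:**
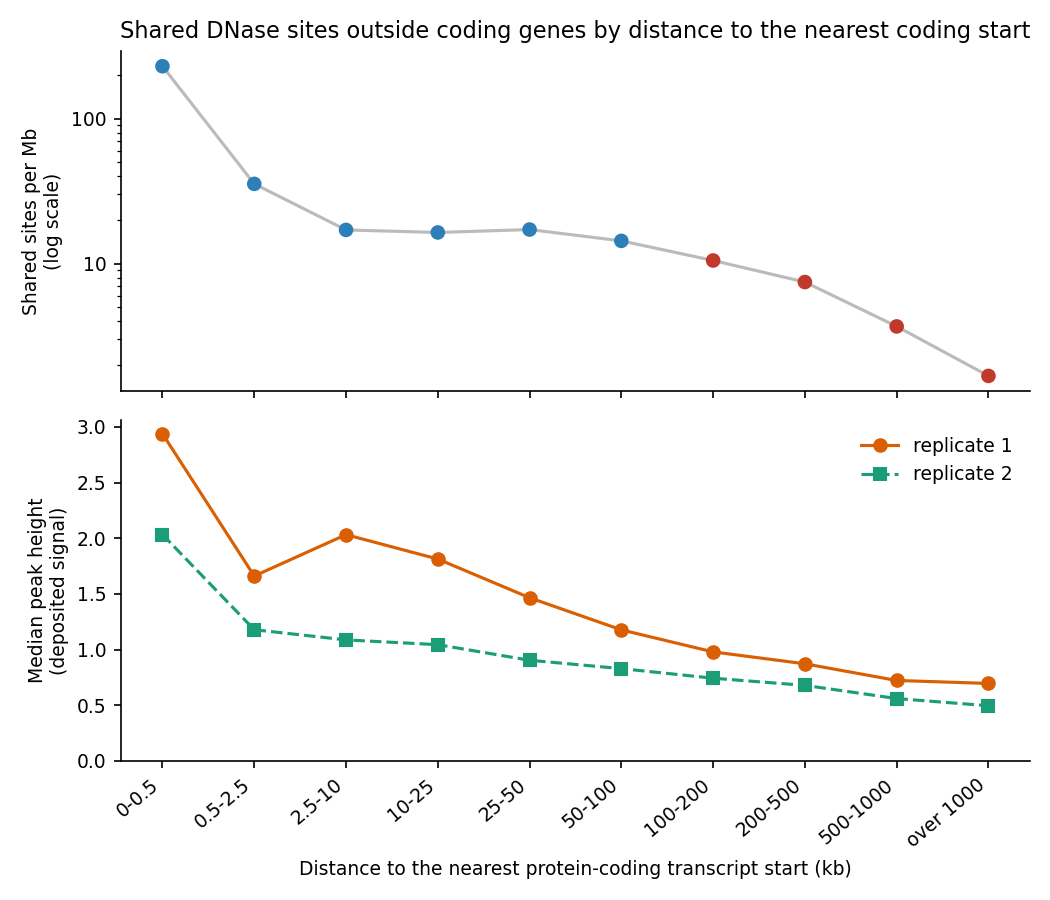
Shared DNase sites outside protein-coding gene bodies by distance in kb to the nearest protein-coding start, with sites per Mb of sequence on a log axis above (blue up to 100 kb, red beyond) and the median deposited peak height of each replicate below. Density falls from 14.3 per Mb at 50 to 100 kb to 1.67 per Mb beyond 1000 kb, and the median heights beyond 1000 kb are 0.695 in replicate 1 and 0.495 in replicate 2.

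Desert sites were lower than the other classes of site in both replicates. Their median height was 0.882 in replicate 1 and 0.678 in replicate 2, with the middle 80% of sites between 0.385 and 2.55 and between 0.409 and 1.34. Intergenic sites at 2.5 to 100 kb from a coding start, called nearer sites here (10109 in number), had medians of 1.57 and 0.947. Unlike desert sites, nearer sites were not held to a distance from noncoding starts. Intronic sites over 2.5 kb from a start had 1.27 and 0.882, and sites within 500 bp of a start had 2.66 and 1.96. On the log2 scale the desert median stood below that of the nearer sites by a difference of -0.83 in replicate 1 and -0.48 in replicate 2, a mean of -0.66 (SD 0.24, n = 2). With nearer sites also kept away from noncoding starts, a setting chosen after seeing the data, the mean was -0.64. The footprint, sequence and motif comparisons with nearer sites below were not repeated in that setting. Against intronic sites the mean difference was -0.45 (SD 0.10, n = 2). Heights above 2 in both replicates were reached by 116 desert sites (2.42%) and 1030 nearer sites (10.2%). Among desert sites the median also declined with distance, from 0.973 and 0.732 at 100 to 200 kb to 0.695 and 0.495 beyond 1000 kb. A higher value in replicate 2 than in replicate 1 was found at 1450 desert sites (30.2%), against 28.5% of all autosomal shared peaks.

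**Figure D2:**
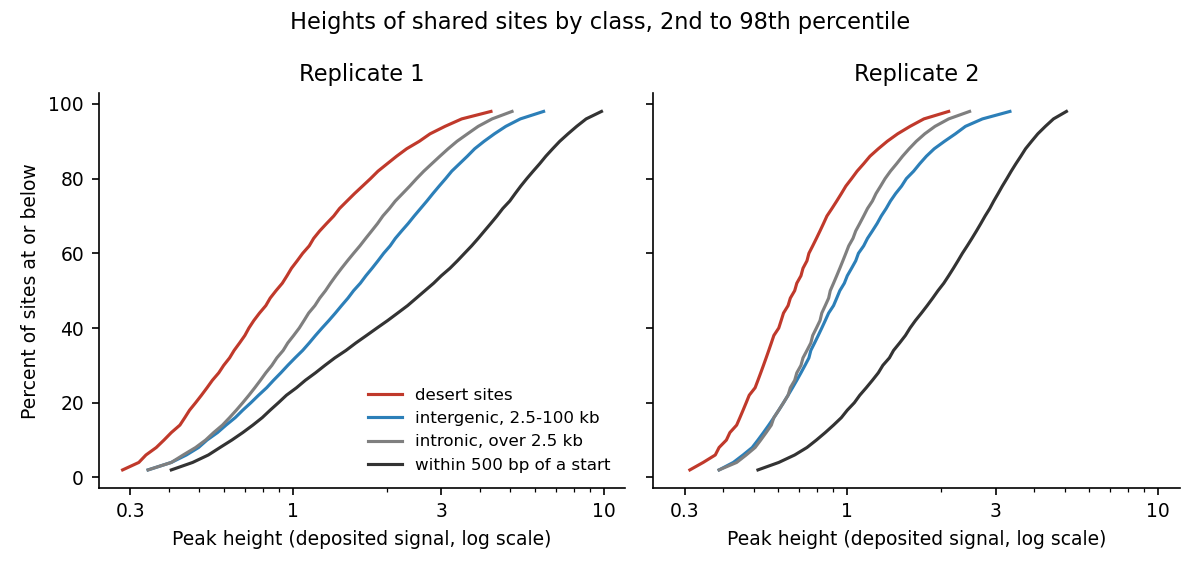
Cumulative distribution of deposited peak heights (log axis) for desert sites, nearer intergenic sites, intronic sites over 2.5 kb from a start and sites within 500 bp of a start, from the 2nd to the 98th percentile, with 1 panel per replicate. The desert curve lies to the left of the other 3 in both panels, with medians of 0.882 and 0.678.

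A few desert sites were far higher than the rest. The highest, between the genes Gm8797 and 1700008P02Rik on chromosome 3, reached 23.9 in replicate 1 and 36.0 in replicate 2, and it was the 1 site among the 12 highest with the larger value in replicate 2. All 31-base words of its 200 bp window occurred more than once in the assembly, 7 times at the median and up to 15 times. How much of its height belongs to this copy of the sequence was not tested. The second, chr1:102628161-102628340, stood at 11.3 and 10.1 between Cntnap5b, of the contactin-associated family, and the cadherin gene Cdh20. It lay 2140 kb from the nearest coding start, the second most remote desert site, and 35.9% of its words were repeated. The third, at 8.29 and 4.52 between the cystine transporter gene Slc7a11 and Noct, held unique words only. All 12 of the highest sites had footprints in both replicates, 2 had a CTCF match and 5 lay on chromosome 1. Others among the 12 lay between Chd7 and Clvs1 (8.12 and 4.16), Ddx18 and Dpp10 (9.06 and 3.51), and Icos and Pard3b (9.14 and 3.47). Chd7 encodes a chromatin remodeller and Dpp10 a protein that modulates potassium channels. At the other end, the 5 lowest sites by the geometric mean of both heights ranged from 0.160 to 0.289 in replicate 1 and from 0.172 to 0.312 in replicate 2.

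The most remote desert site lay 2195 kb from a coding start, in the gap on chromosome 18 between Celf4, which encodes a neuronal RNA-binding protein, and the lipid kinase gene Pik3c3. Its heights of 1.83 and 1.52 were above the desert medians, and it carried 4 footprints in replicate 1 and 5 in replicate 2. The same gap held the fourth most remote site (2083 kb, heights 1.58 and 1.02). The gap between Tenm3, a teneurin of synaptic adhesion, and Aga, a lysosomal enzyme gene, held the third and the fifth, at 2124 and 2072 kb. Their heights were 0.925 and 0.538 for the third and 0.711 and 0.936 for the fifth.

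Footprints, short stretches within open chromatin that the authors called as protected from cutting, were found in both replicates at 51.7% of desert sites, a lower share than at nearer, intronic and promoter sites. At least 1 footprint overlapped 77.8% of desert sites in replicate 1 and 58.7% in replicate 2, against 80.7% and 70.3% of all autosomal shared peaks. Both replicates had one at 2478 sites (interval 50.3 to 53.1%), beside a background of 63.8% over all autosomal shared peaks, 66.7% of nearer sites, 61.9% of intronic sites and 70.7% of sites within 500 bp of a start. The share was 50.6% at flank sites, those at 0.5 to 2.5 kb from a start. Neither replicate had one at 726 desert sites (15.1%), against 12.8% of all autosomal shared peaks, 10.2% of nearer sites and 21.4% of flank sites. The site richest in footprints, with 8 and 5, was a wide one of 520 bp between the metabotropic glutamate receptor gene Grm7 and Lmcd1. Next was a site between the adaptor gene Grb10 and the actin nucleator gene Cobl, with 8 and 4. The authors' false discovery rate of the cut rate fell below 0.001 in both replicates at 2067 desert sites (43.1%), against 59.0% of all autosomal shared peaks, 53.3% of nearer sites and 43.6% of intronic sites. Desert sites were also lower in height, and the part of height in these shares was not tested.

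Within each sample, desert peaks were found less often in the other sample than peaks in general, but at matched height they were found more often than nearer or intronic ones in replicate 1. Replicate 1 had 17245 desert peaks, of which 4767 (27.6%) were found again in replicate 2, where the background over all its autosomal peaks was 38.1%. Replicate 2 had 6296, of which 4693 (74.5%, 73.4 to 75.6) were found again in replicate 1, where the background was 82.1%. When replicate 1 peaks were split by height, the order of desert and nearer peaks turned around. Below a height of 0.5, 10.7% of desert peaks and 8.22% of nearer peaks were found again. The shares were 33.6% and 24.5% at heights of 0.5 to 1, 67.6% and 54.8% at 1 to 2, and 93.8% and 89.1% at 2 or more. In each of these bins the desert interval lay above that of the nearer peaks. For replicate 2 peaks the gaps were smaller, with 51.0% and 47.7% below 0.5, 83.6% and 82.1% at 0.5 to 1, 99.2% and 97.8% at 1 to 2, and 99.2% and 99.5% at 2 or more.

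**Figure D3:**
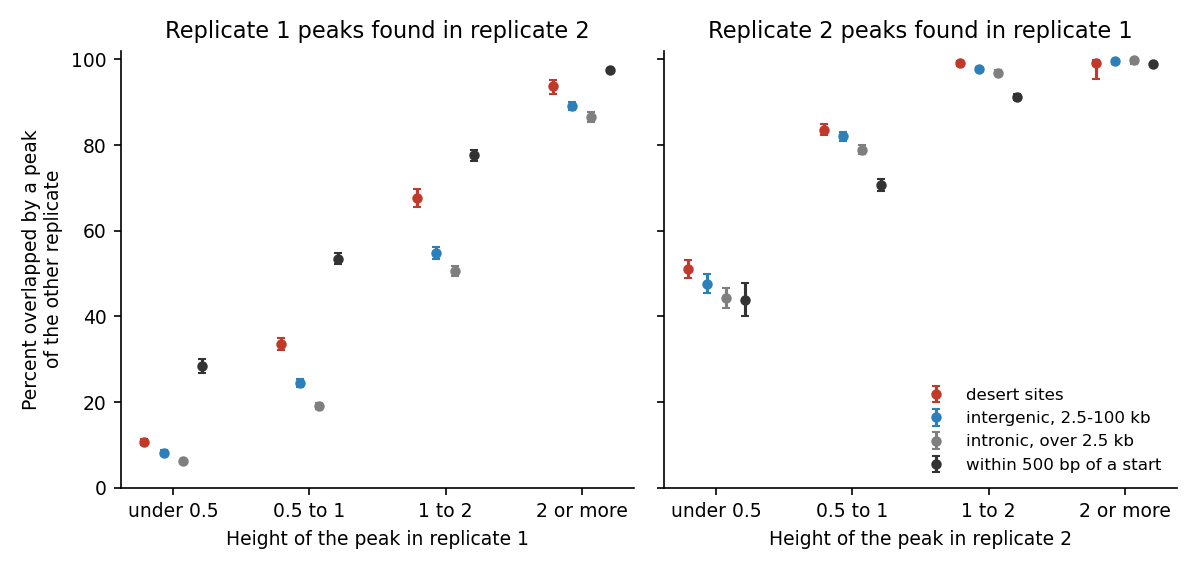
Percent of the peaks of each replicate that overlap a peak of the other, by the height of the peak and its class, with 95% Wilson intervals as bars. For replicate 1 peaks of height 1 to 2 the desert value is 67.6%, above the 54.8% of nearer intergenic peaks and below the promoter value of 77.7%.

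In sequence, desert sites differed from the desert around them much more than from nearer sites. Their 200 bp windows had a median GC content of 49.5%, against 39% for the 200 bp tiles of the desert sequence and 52.5% for nearer sites. On average 7.78% of a desert site's window was soft-masked as repeats, against 38.6% of the tiles and 8.06% of the nearer windows, and in 66 sites the masked share was above 50%. Windows in which every 31-base word was unique in the assembly made up 95.4% of desert sites (4576) and 90.4% of nearer sites. In 40 desert sites over 50% of the words were repeated. No desert site shared a 31-base word with the mitochondrial genome. The median width was 140 bp, against 160 bp for nearer sites.

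Desert and nearer sites lay in noncoding genes at like shares, though sites at noncoding starts were left out of the desert set only. Of the 291 sites set aside by that rule, 199 (68.4%) lay inside a long noncoding RNA gene. No annotated gene body of any kind overlapped 4044 desert sites (84.3%) and 83.2% of nearer sites, and 732 desert sites (15.3%) lay inside a long noncoding RNA gene, as did 15.3% of nearer sites. A noncoding start within 10 kb was found for 941 sites (19.6%), and for 461 of these the nearest one belonged to a lincRNA. The long noncoding genes with the most desert sites in their bodies were 3110039I08Rik on chromosome 9 with 9 sites, and D5Ertd615e on chromosome 5 and Mir99ahg, the host gene of a miRNA cluster on chromosome 16, with 8 each. No desert site overlapped an immunoglobulin or T cell receptor segment.

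Desert sites carried the E-boxes CAGATGG and CAGCTG and the NFI half-site more often than nearer sites did, and the E-box CAGGTG and CTCF matches less often. For CAGATGG and CAGCTG the desert interval overlapped that of intronic sites. The search covered 25 motifs on both strands of the 200 bp window, and 24 had at least 1 match. Matches describe letters in the window, not binding. For 6 motifs the Wilson interval of the desert share lay above that of the nearer sites, for 5 below, and for 13 the intervals overlapped. GC content differed between the classes by the values above, and its part in these shares was not tested. Among the letters searched, the NFI half-site can lie within the longer palindromic NFI consensus, and CAGATGG shares CAGATG with the ZBTB18 motif CAGATGTG.

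The NEUROD-type E-box CAGATGG was present in 926 desert sites, or 19.3% (18.2 to 20.5), in 14.2% of nearer sites, in 18.7% of intronic sites (interval up to 19.5) and in 3.35% of the tiles of desert sequence. Where it was present, the match nearest to the centre of the site lay under a footprint in 61.8% of sites in replicate 1 and 25.8% in replicate 2. These shares were 56.6% and 29.1% for nearer sites, and 57.2% and 30.3% for intronic sites. CAGCTG was present in 22.4% of desert sites (21.2 to 23.6), 18.7% of nearer sites, 21.6% of intronic sites (20.8 to 22.4) and 5.80% of tiles. Either of these E-boxes was found in 1833 desert sites (38.2%) and in 30.2% of nearer sites. The NFI half-site TTGGCA stood in 1220 desert sites (25.4%), 1717 of the 10109 nearer sites, 21.4% of intronic sites (20.7 to 22.2) and 9.75% of tiles, with the desert interval (24.2 to 26.7) above the intronic one. For the full NFI consensus the shares were 1.17% of desert sites, 0.692% of nearer sites, 0.985% of intronic sites and 0.0457% of tiles. Here the desert interval (0.901 to 1.51) overlapped the intronic one (0.812 to 1.19). The other 2 motifs with a higher share than in nearer sites were the homeobox core TAATTA (4.94% against 3.23%) and the POU octamer ATGCAAAT (1.96% against 1.31%). The homeobox core was nevertheless rarer in desert sites than in the tiles, at 8.59%, and so was the MEF2 consensus (2.06% against 5.54%). The motifs with a lower share than in nearer sites were, besides CTCF, the CRE TGACGTCA, the ZEB-type E-box CAGGTG, and the promoter motifs SP/KLF GGGGCGGGG and ETS CCGGAAG. SP/KLF matched 0.605% of desert sites and 15.8% of sites within 500 bp of a start. The REST consensus matched no desert, nearer or intronic site and 1 of 3633081 tiles. Of the desert sites, 42.7% held neither of the 2 E-boxes, an NFI half-site nor CTCF, against 49.9% of nearer sites.

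**Figure D4:**
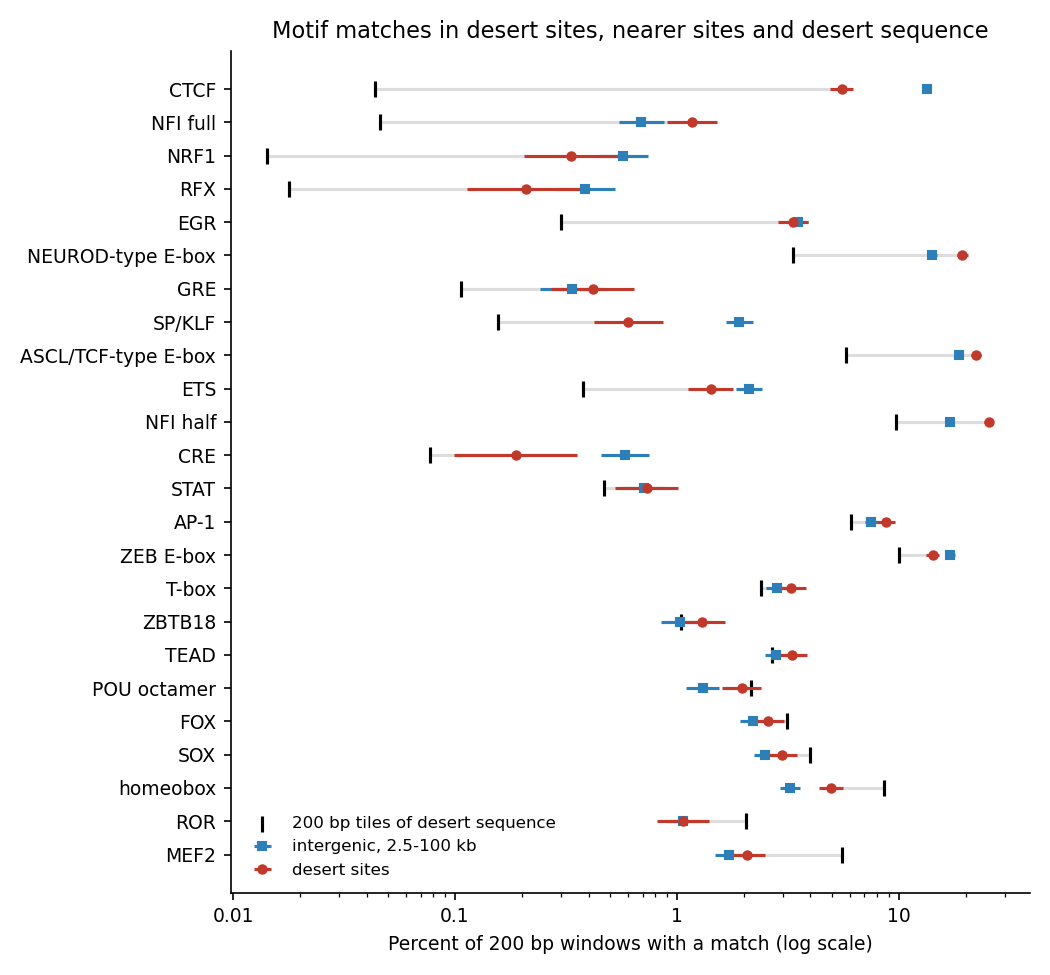
Percent of 200 bp windows with a match to each of 24 motifs (log axis) in desert sites, in nearer intergenic sites and in 200 bp tiles of desert sequence, with 95% Wilson intervals as bars, ordered by the ratio of desert sites to tiles. CTCF leads that order with 5.53% of desert sites against 0.0437% of tiles, but its share of nearer sites is 13.3%.

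CTCF matches marked a small and tall minority of desert sites. They were found in 265 sites, or 5.53% (4.91 to 6.21), against 6.70% of all autosomal shared peaks, 13.3% of nearer sites, 10.1% of intronic sites and 0.0437% of tiles. The share decreased outward, from 7.13% of desert sites at 100 to 200 kb to 4.58% at 200 to 500 kb, 3.76% at 500 to 1000 kb and 2.48% beyond. Desert sites with a match had median heights of 2.48 and 0.914, and those without had 0.840 and 0.667. The same order held for nearer sites, with 2.83 and 1.20 against 1.39 and 0.914 without a match. For intronic sites the medians were 2.75 and 1.19 with a match and 1.16 and 0.861 without. A footprint covered the match in 97.4% of the 265 sites in replicate 1 and in 66.0% in replicate 2. These shares were 98.6% and 79.6% for nearer sites, and 98.8% and 78.6% for intronic sites. With CTCF sites removed from both classes, desert sites were still lower than nearer sites, with a log2 difference of -0.73 in replicate 1 and -0.46 in replicate 2. Among sites with a match it was -0.19 and -0.40. The desert share of CTCF matches was 9.17% with the shorter deposited lists and 3.27% without replicate 2, below that of nearer sites in both cases.

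A desert is counted here as the gap between 2 neighbouring protein-coding gene bodies, and eligible sequence is the part of the gap that meets the distance rule. Of 1719 gaps with such sequence, 1124 held at least 1 site, and 595 held none in 79.2 Mb. Together they offered 728 Mb, or 6.58 sites per Mb. The 217 richest gaps held 50% of all desert sites. The 12 richest held 286 sites (5.96%) in 2.52% of the eligible sequence, with 6.61 to 27.1 sites per Mb in each. Sites that share 1 wide peak of a replicate with a neighbour (7.57% of desert sites) were counted separately in every gap. Gaps were not ranked again with such sites joined, so the order of gaps with close counts may depend on them. By chromosome the density ran from 5.14 per Mb on chromosome 14 to 8.60 on chromosome 13.

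The richest gap, chr12:106077427-107488631, lay between Vrk1, a nuclear kinase gene, and 3110018I06Rik. It held 32 sites, or 25.8 per Mb of eligible sequence, with heights of 0.283 to 1.90 in replicate 1 and 0.452 to 1.30 in replicate 2. All of them were therefore modest, none had a CTCF match, and 7 had a NEUROD-type E-box. Bcl11b, a transcription factor gene of deep-layer cortical and hippocampal neurons, lies 422 kb beyond the right end of this gap (it was singled out after the values were seen). With the shorter deposited lists the richest gap was instead that of Zfp608 and Gramd3 (13 sites), and with replicate 1 alone it was that of 4931429L15Rik and Gm4791 (105 sites). The second richest, chr5:132543345-134099710, held 30 sites between Auts2, a gene linked to human neurodevelopmental disorders, and Castor2, with heights of 0.289 to 3.64 and 0.323 to 1.99. NFI half-sites were present in 11 of its 30 sites. The gaps on both sides of Zfp608, a zinc-finger gene on chromosome 18, were the third and the ninth in this order, with 27 sites towards Gramd3 and 21 towards Csnk1g3.

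Next came 26 sites between Tenm2, a teneurin gene, and Mat2b, a subunit of methionine adenosyltransferase (chr11:37235965-40679313), and 23 between Zeb2, a zinc-finger repressor gene of neural development, and the activin receptor gene Acvr2a (chr2:45117396-48814108). These 2 gaps were also the widest of the 12, at 3.44 and 3.70 Mb, and had the lowest densities among them, at 8.02 and 6.61 per Mb. A further 3 gaps held 22 sites each. They lay between the kinesin gene Kif2a and Ndufaf2 (chr13:107022127-108002714, 27.1 per Mb), between Id2, an inhibitor of bHLH factors, and Rnf144a (chr12:25097141-26300963), and between the anion exchanger gene Slc4a3 and Epha4, an ephrin receptor of axon guidance (chr1:75562173-77367184). The last held the tallest site of the 12 gaps, at 7.24 and 3.55. The list ended with 21 sites between Camk1g, a calcium-dependent kinase gene, and Plxna2, a semaphorin receptor gene, and 20 each between Nphp4 and Ajap1 and between Tmem182 and Pou3f3, a POU factor gene of the forebrain. Another gap with 20 sites, between Celf4 and Pik3c3, fell outside by its lower density of 4.66 per Mb.

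As a set, the sites of the 12 richest gaps had CTCF matches less often than the sites of the other gaps. Their median heights were 0.826 and 0.732, against 0.893 and 0.667 in all other gaps. Footprints in both replicates were found at 53.5% of the 286 and at 51.6% of the others. CTCF matches were found in 5 of 286 (1.75%), against 260 of 4509 (5.77%). They lay farther from coding starts, with a median of 379 kb against 220 kb, and the CTCF share decreased with distance among all desert sites. Replicate 2 had the higher value at 39.5% of the 286 and at 29.7% of the others.

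**Figure D5:**
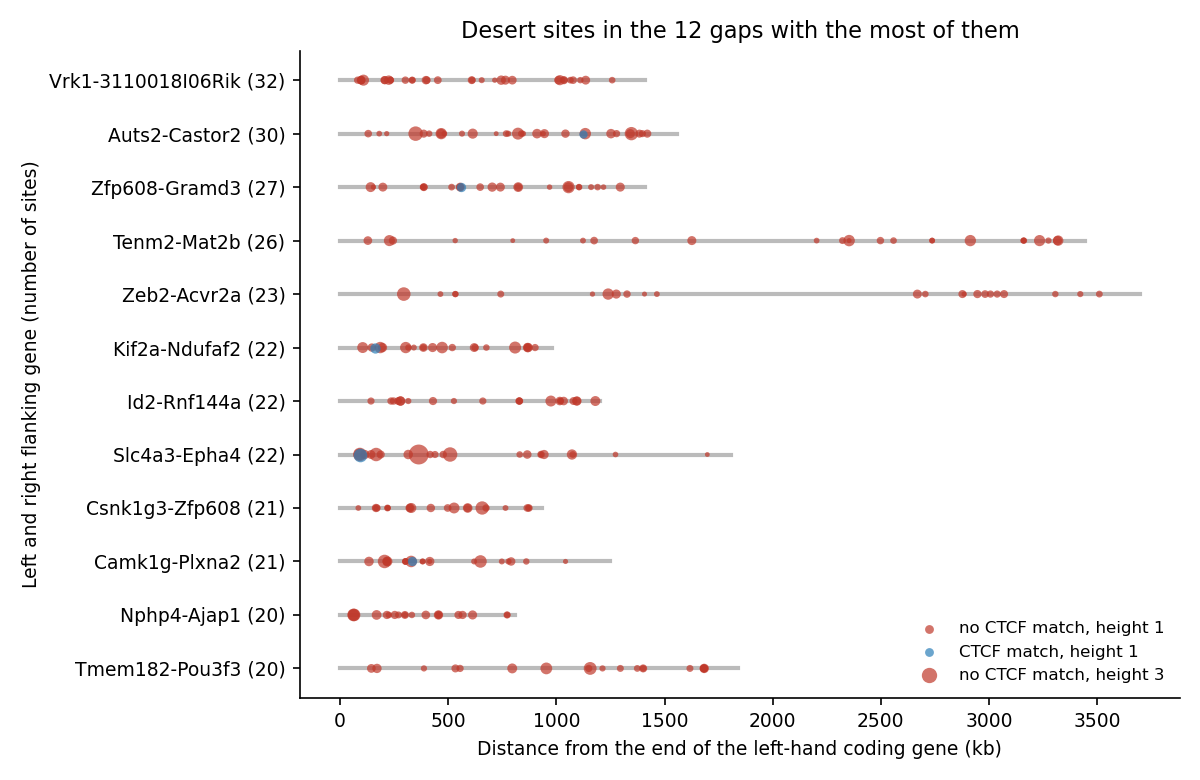
Position of every desert site in the 12 gaps with the most of them, in kb from the end of the left-hand protein-coding gene, where the grey line is the whole gap, the area of a point follows the geometric mean of both heights, and blue points have a CTCF match. The Vrk1 gap holds 32 sites and no CTCF match, and the largest point (7.24 in replicate 1 and 3.55 in replicate 2) is in the Slc4a3 gap.

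Measured per Mb, among gaps with at least 300 kb of eligible sequence and at least 5 sites, the 6 densest had 32.6 to 37.3 sites per Mb and were 0.555 to 0.659 Mb long. Of their 12 flanking genes, only Mef2c and Myt1l belonged to one of the gene lists. Rbfox1, a neuronal splicing factor gene, led with 37.3 per Mb in the gap towards Eef2kmt (16 sites, chr16:5255984-5885354). Then followed Mycn and Fam49a with 35.2 per Mb (16 sites), the stress-response gene Gadd45g and Diras2 with 33.4 (16 sites), Mef2c and Tmem161b with 33.0 (12 sites), the activity-induced nuclear receptor gene Nr4a3 and Sec61b with 32.8 (12 sites), and the neuronal factor gene Myt1l and Eipr1 with 32.6 (18 sites). The Myt1l gap held a site of 5.72 and 3.11.

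The gaps with the most eligible sequence ranged widely in their number of sites. The 3 gaps with the most eligible sequence were those between Tenm3 and Aga (4.43 Mb, 10 sites), Pcdh20 and Pcdh9 (4.42 Mb, 4 sites) and Celf4 and Pik3c3 (4.30 Mb, 20 sites). The 4 sites of the protocadherin gap were low, at 0.364 to 0.578 in replicate 1 and 0.484 to 0.656 in replicate 2. The largest gap without any desert site had 1.91 Mb between Adam6a and Zfp386 on chromosome 12 and contains the immunoglobulin heavy chain segments, which are used by B cells. Another empty gap had 1.43 Mb between Slitrk5, a synaptic adhesion gene, and Tpm3-rs7. The promoter of Slitrk5 was open itself (6.34 and 3.26).

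The 23 genes that flank the 12 richest gaps mostly had open promoters. A shared peak lay within 500 bp of a start for 20 of them, or 87.0% (67.9 to 95.5), against 58.0% of all autosomal protein-coding genes and 69.0% of the 2841 genes that flank any gap with eligible sequence. The 3 without were 3110018I06Rik, Camk1g and Tmem182. Of the 23, 3 (Zeb2, Id2 and Pou3f3) belonged to a list of transcription factors of forebrain development, 13.0% against 3.20% of all flanking genes. Another 2 (Tenm2 and Epha4) belonged to a list of neuronal adhesion and axon guidance genes, 8.70% against 2.96%. None belonged to the lists of ion channels and receptors or of housekeeping genes, whose shares of all flanking genes were 1.72% and 0.0352%. With 23 genes the intervals were wide, 4.54 to 32.1% for the transcription factors.

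Gaps beside forebrain transcription factor genes were denser in sites than gaps beside adhesion genes, at each distance from the starts. The 125 gaps that touch a listed factor held 636 sites at 9.53 per Mb, and the 129 that touch an adhesion gene held 612 at 3.71. Beside ion channel and receptor genes 71 gaps held 198 sites at 5.59 per Mb, and the 1395 gaps without a list gene held 3367 at 7.26. The adhesion gaps were larger, and density decreased with distance, so the values were also split. A gap that touches genes of more than 1 list was counted under each. At 100 to 200 kb the factor gaps had 11.2 sites per Mb, the adhesion gaps 7.53 and gaps without a list gene 10.2. At 200 to 500 kb these were 10.3, 4.85 and 7.21. Beyond 500 kb they were 6.53, 2.41 and 2.94. The factor gaps thus exceeded gaps without a list gene by less at 100 to 200 kb than farther out, and none of these differences was tested. Sites in factor gaps were not taller, with medians of 0.781 and 0.662 against 0.914 and 0.688 in gaps without a list gene, and 2.83% of them had a CTCF match, against 6.06%.

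Of the 125 gaps beside listed factors, 25 held at least 10 sites, as did 104 of all 1719 gaps with eligible sequence. Gap size was not matched in these counts. The densest of these were short gaps, beside Hivep2 with 41.0 per Mb (10 sites) and beside Hes1, a Notch effector gene, with 40.3 (11 sites). Mef2c, which encodes a factor of neuronal activity and synapse number, and Myt1l followed with the values above. Sox9, a glial factor gene, had 10 sites at 27.8 per Mb towards Slc39a11 and 14 at 9.29 per Mb towards Kcnj2. Prox1, the dentate granule cell factor gene whose own promoter had no shared peak, had 11 sites at 25.9 per Mb towards Rps6kc1. Sox11, a factor gene of immature neurons, had 15 sites towards Cmpk2 and 14 towards Dcdc2c. Sall1 and Tox3 flanked a single gap with 16 sites, Nfib, an NFI gene, had 15, Bcl11a 13 and Sox2 13.

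Desert sites lay farther from each other than nearer sites or shared peaks in general. Such distances depend on how dense each set is, and the lower density of desert sites is given above. All shared peaks also include the desert sites. The median distance to the nearest other site of the same set was 30.2 kb for desert sites, 13.9 kb for nearer sites and 4.46 kb for all autosomal shared peaks. Another desert site within 10 kb was found for 1537 (32.1%) and within 1 kb for 899 (18.7%), and the shares for nearer sites were 44.9% and 22.1%. Since a site is an intersection, 1 wide peak of a replicate can hold several. A peak of either replicate was shared with a neighbouring desert site at 363 sites (7.57%). Joining such sites left 4607, of which 12.2% had another within 1 kb. Chained at up to 10 kb, 137 runs held 3 or more sites, 455 in all. The longest run had 9 sites within 11.5 kb at chr13:84055087-84066551 in the Mef2c gap, with heights of 0.455 to 1.35 in replicate 1 and 0.538 to 1.54 in replicate 2. The long noncoding gene Gm17750, which spans part of this stretch, held 7 desert sites. Runs of 6 were found in the gap between Opa1 and Hes1, within 3.85 kb, and in the gap between Fbxo11 and Foxn2, within 10.9 kb. A run of 5 within 1.72 kb lay in the gap next to Pou3f3. After joining sites that share a peak, the run of 9 still counted 9, and the other 3 runs counted 4 each. None of the sites in these 4 runs had a CTCF match.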

How the data were processed

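DNase-seq measures accessible chromatin from the cuts of DNase I in isolated nuclei. Per the labels, the authors deposited for each sample 2 peak lists with a signal value (height) per peak, 1 footprint list, and a false discovery rate (a q-value) of the cut rate per interval, all on mm10. Footprints carry the constant 0.01 where a p-value would stand and were used by position. The sources used here do not give the aligner, callers, thresholds or scaling of heights. The longer peak list of each sample was used, and a site's height in a replicate is the highest of its peaks there. Genes came from GENCODE M21 and sequence from RefSeq's GRCm38, the assembly of mm10. Python 3.11.15 with numpy 2.4.6, pandas 2.3.3 and scipy 1.17.1, and bedtools 2.31.1, were used, and interval, motif and word-counting code was tested on simulated data.

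Named gaps were the 12 richest, the 6 densest, the 3 with most eligible sequence and the 3 longest empty ones. Named sites were the 12 highest, the 5 most remote, the 5 richest in footprints and the 5 lowest. Some that these rules took are given only within counts or ranges, or are not reported here. The members, the 4 gene lists (307 genes), the motifs and these rules were chosen with earlier results of these data known. All comparisons are between classes of sites within each replicate. Alternatives changed the list, the overlap, the distances, the windows and the replicates used.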

Additional observations from a re-analysis of the deposited data

How the results depend on the processing

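The lists differed in length, with 59880 peaks in replicate 2 against 132685 in replicate 1, and the cause was not tested. No paired analysis was possible because the series has 1 group. Of 57 values under alternatives 31 moved beyond their interval or by over 1.5 times. The height difference stayed below 0 in all 11 of its alternatives (-0.75 to -0.45, and -0.53 with either replicate left out), and the footprint and CTCF shares of desert sites were below those of nearer sites in all 19 of theirs. With the shorter deposited lists the number of sites was 1800 (6.56% of shared peaks), with footprints in 74.6%, CTCF matches in 9.17% and 13 sites in the richest gap, Zfp608 to Gramd3. With 50% reciprocal overlap these were 3044, 67.5%, 7.26% and 19 (Auts2 to Castor2 and Tenm2 to Mat2b alike). With lists of equal length they were 2832 (7.34%), 68.4%, 8.76% and 19 (Auts2 to Castor2). Over 200 kb from a start they were 2733 (5.52%), 49.2% and 4.32%. Over 50 kb they were 7281 (14.7%). Outside gene bodies of every type the share was 8.33%, and Auts2 to Castor2 was the richest gap with 29. Footprints within 100 bp of the centre were found at 59.0%. Without repeated 31-base words, a setting chosen after seeing the data, the share was 9.25%. Without replicate 1 the number was 6238, the share 11.0%, CTCF matches were found in 3.88% and the richest gap held 38 sites. Without replicate 2 these were 17180, 13.4%, 3.27% and 105, the last between 4931429L15Rik and Gm4791. Footprints, counted here in the remaining replicate only, were found at 55.5% without replicate 1 and at 74.3% without replicate 2. Which gap ranked first changed with the list, the overlap rule, the gene bodies and the replicate used, as given here.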
